A study of Mus musculus with 2 samples.

Results

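The heavy and kappa variable gene segments of the mouse are the DNA pieces from which the antigen-binding end of an antibody chain is built. They were taken as all genes whose symbol starts with Ighv or Igkv and whose GENCODE gene type is that of an immunoglobulin variable gene (IG_V_gene). The rule gave 213 segments, 113 heavy and 100 kappa, and 210 of them had a row in the expression table, out of 43346 genes. The 3 without a row were the kappa segments Igkv2-109, Igkv20-101-2 and Igkv8-34, for which no value is given here. The 113 heavy segments fell into 16 families and all lay on the minus strand of chromosome 12. The 97 kappa segments with a row fell into 19 families on chromosome 6, with 36 on the plus strand and 61 on the minus strand.

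Total RNA of CH12.LX, an established mouse B cell lymphoma line labelled with the strain B10.H-2aH-4bp/Wts, was sequenced in 2 libraries. The labels call them biological replicates 1 and 2 of the line and give no treatment, so there was 1 group and no contrast. Nothing in the labels says how the cultures were grown or separated, and the spread between the libraries may therefore be technical. A line of this kind descends from tumour cells of a single animal, and its levels describe those cells and not B cells in general.

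A B cell makes its antibody genes by cutting and joining DNA. A variable segment is joined to a joining segment, in the heavy chain with a diversity segment between them, and a clone normally keeps a productive heavy chain gene and a productive light chain gene. In the heavy chain locus the DNA between the joined pieces is lost. In the kappa locus a segment that points the same way as the joining segments is joined by loss of the DNA between them, and a segment that points the other way is joined by inversion of that DNA. Each unjoined segment carries a promoter of its own, and the enhancers of the locus lie near the constant genes. Each spliced antibody mRNA then carries a variable part and a constant part.

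The levels turned on 3 segments, and most of the coding sequence of each is shown with that of a close relative, because relatives can compete for the same reads. The sequences are the last 298 coding bases of GENCODE M21 transcripts (GRCm38), read 5′ to 3′ on the coding strand, and leave out the leader exon. They hold the end of the leader, which lies on the second exon, and the part of the variable domain that the segment encodes. In the heavy pair the first 7 bases of the second exon are not shown. Capitals mark the bases that differ between the members of a pair. The heavy segment Ighv1-53 (ENSMUSG00000093894.1) at chr12:115158403-115158700, minus strand, is paired with Ighv1-55 at chr12:115208095-115208392, minus strand. They differed at 15 of the 298 bases shown and at 16 of 351 coding bases, with a longest identical run of 63 bases.
Ighv1-53: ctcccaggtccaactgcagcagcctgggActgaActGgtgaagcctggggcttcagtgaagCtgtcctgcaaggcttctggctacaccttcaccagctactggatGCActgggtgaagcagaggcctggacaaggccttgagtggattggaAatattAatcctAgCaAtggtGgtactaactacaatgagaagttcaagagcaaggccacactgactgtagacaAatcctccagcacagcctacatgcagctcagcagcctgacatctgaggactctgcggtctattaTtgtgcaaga
Ighv1-55: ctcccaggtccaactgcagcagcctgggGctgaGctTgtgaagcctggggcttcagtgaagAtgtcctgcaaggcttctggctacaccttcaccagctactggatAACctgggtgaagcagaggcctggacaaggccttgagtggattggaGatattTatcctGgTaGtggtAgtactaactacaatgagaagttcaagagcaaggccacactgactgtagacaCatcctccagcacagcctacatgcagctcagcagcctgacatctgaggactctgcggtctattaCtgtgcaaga
The kappa segment Igkv10-96 (ENSMUSG00000094420.1) at chr6:68631963-68632260, minus strand, is paired with Igkv10-94 at chr6:68704508-68704805, minus strand. They differed at 16 of the 298 bases shown and nowhere else in 347 coding bases, with a longest identical run of 131 bases.
Igkv10-96: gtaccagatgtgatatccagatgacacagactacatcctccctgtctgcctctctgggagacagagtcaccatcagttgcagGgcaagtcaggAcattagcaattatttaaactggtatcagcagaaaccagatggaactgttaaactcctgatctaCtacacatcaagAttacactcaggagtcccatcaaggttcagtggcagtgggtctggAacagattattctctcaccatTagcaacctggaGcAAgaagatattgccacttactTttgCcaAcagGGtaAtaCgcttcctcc
Igkv10-94: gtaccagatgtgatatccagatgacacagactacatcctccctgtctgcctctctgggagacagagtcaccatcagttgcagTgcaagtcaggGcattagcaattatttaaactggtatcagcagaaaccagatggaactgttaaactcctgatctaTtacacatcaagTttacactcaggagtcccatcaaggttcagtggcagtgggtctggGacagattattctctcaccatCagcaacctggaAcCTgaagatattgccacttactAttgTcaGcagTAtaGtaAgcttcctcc
The kappa segment Igkv14-111 (ENSMUSG00000095771.1) at chr6:68256572-68256869, plus strand, is paired with Igkv14-126 at chr6:67896345-67896642, plus strand. They differed at 27 of the 298 bases shown and at 30 of 353 coding bases, with a longest identical run of 44 bases.
Igkv14-111: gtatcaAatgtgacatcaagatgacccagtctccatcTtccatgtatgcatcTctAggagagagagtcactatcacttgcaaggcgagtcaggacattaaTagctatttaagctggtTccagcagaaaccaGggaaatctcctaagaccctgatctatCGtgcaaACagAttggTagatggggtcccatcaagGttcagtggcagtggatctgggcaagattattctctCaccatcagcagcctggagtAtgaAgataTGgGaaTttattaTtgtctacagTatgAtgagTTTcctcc
Igkv14-126: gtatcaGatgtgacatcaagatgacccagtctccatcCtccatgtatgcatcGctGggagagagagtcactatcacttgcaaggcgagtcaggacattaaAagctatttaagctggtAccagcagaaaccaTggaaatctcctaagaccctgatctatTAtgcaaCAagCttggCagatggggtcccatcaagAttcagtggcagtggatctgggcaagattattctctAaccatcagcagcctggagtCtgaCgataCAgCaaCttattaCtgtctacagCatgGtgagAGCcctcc

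An expected count is the deposited estimate of the reads that belong to a gene, and the library totals were 49278383 for replicate 1 and 55950529 for replicate 2. The segments took 0.121% of them in replicate 1 and 0.104% in replicate 2. Their summed TPM, the deposited level per length that adds up to the same total in every library, was 2840 in replicate 1 and 2628 in replicate 2. The 10 B cell markers on the list used were each at or above 1 TPM in both libraries, with sums of 3791 and 3690 TPM, and of 728 and 744 TPM without the antibody genes Ighm and Igkc. Of 6 plasma cell markers 5 reached that level, with list sums of 431 and 333 TPM, led by the antibody-secretion genes Mzb1 at 215 and 188 TPM and Jchain, which joins antibody units, at 176 and 114 TPM. Of 8 T cell markers 2 reached that level, Cd3d at 1.14 and 1.45 TPM and Cd3g at 2.69 and 3.04 TPM. Of the others, Cd3e, Trbc1 and Trbc2 were at 0, and Cd4, Cd8a and Trac were at most 0.08 TPM in either library. None of 6 myeloid markers and none of 6 markers of pro-B and pre-B cells reached 1 TPM, and the summed levels of these lists were at most 0.33 and 0.21 TPM in either library.

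Of the 210 segments, 185 (88.1%) had 0 expected counts in both libraries, against 51.7% of all genes. The share was 93.8% in the heavy chain (106 of 113) and 81.4% in the kappa chain (79 of 97). A level of at least 1 TPM in both libraries was reached by 3 segments (1.43%), against 9571 of all genes (22.1%). The 3 were Ighv1-53 in the heavy chain and Igkv10-96 and Igkv14-111 in the kappa chain. With TPM rescaled to the genes outside the small noncoding RNA types, 2 heavy and 2 kappa segments reached it. The median of the mean level was 0 TPM in each chain, and also over all genes. For a heavy segment without counts, a floor of 3 counts corresponded to between 0.0899 and 0.286 TPM in replicate 1 and between 0.0841 and 0.271 TPM in replicate 2, depending on its length. For a kappa segment without counts the floor lay between 0.128 and 0.217 TPM in replicate 1 and between 0.121 and 0.210 TPM in replicate 2. A level below its floor can leave a segment without a count at this depth. The deposited upper TPM credibility bound of segments without counts went up to 0.622 TPM in replicate 1 and 0.632 TPM in replicate 2 in the heavy chain, and to 0.216 and 0.208 TPM in the kappa chain. These floors, and the 95% intervals given below, cover counting error only, since reads without molecular identifiers are not independent molecules.

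**Figure D1:**
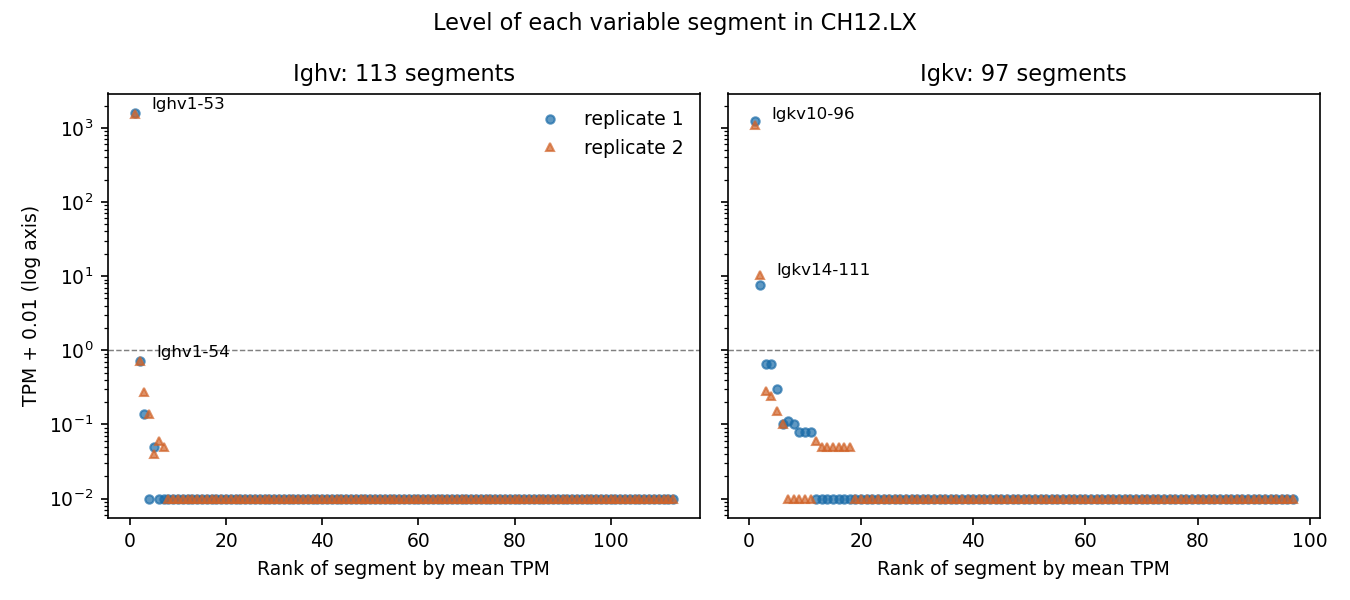
TPM plus 0.01 on a log axis for each heavy (left) and kappa (right) segment, ranked by its mean over the libraries, with circles for replicate 1 and triangles for replicate 2. The dashed line marks 1 TPM: Ighv1-53, Igkv10-96 and Igkv14-111 lie above it in both libraries, and most segments lie at 0.01, which stands for 0 TPM.

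In the heavy chain, Ighv1-53 had 33886 expected counts in replicate 1 and 34224 in replicate 2. Its level was 1596 TPM in replicate 1 and 1529 TPM in replicate 2 (1563 ± 47.2, SD, n = 2). Ighv1-53 belongs to the largest family, Ighv1, of which 53 members were in the table, and 49 of these had no count in either library. By mean TPM it ranked 11th of 37581 genes outside the small noncoding RNA types. It held 99.9% of the heavy variable TPM in each library. Its counts were 11295 times the floor of 3 counts in replicate 1 and 11408 times that floor in replicate 2.

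Of the other 112 heavy segments 6 had any count, and their counts summed to 20 in replicate 1 and 30 in replicate 2. Ighv1-54 had 17 counts in replicate 1 and 18 in replicate 2, and 0.71 TPM in each. That is 0.0445% of the Ighv1-53 level in replicate 1 and 0.0464% in replicate 2. Ighv8-6 had 2 counts (95% exact Poisson interval 0.242 to 7.23) in replicate 1 and 6 counts (2.20 to 13.1) in replicate 2, or 0.13 and 0.26 TPM. The transcript table placed the 2 counts of replicate 1 on a 301-base transcript of Ighv8-6 and the 6 counts of replicate 2 on a 354-base one. With annotation releases M2 and M3 in place of M4, Ighv8-6 had 2 counts in replicate 1 and 1 in replicate 2, and its mean level was 0.095 TPM in place of 0.195 TPM. Ighv1-55, shown above beside Ighv1-53, had 1 count (0.025 to 5.57) in each library. Ighv2-2 had 0 counts in replicate 1 and 3 in replicate 2, and Ighv1-69 and Ighv5-2 had 0 in replicate 1 and 1 in replicate 2. The last 3 segments were thus seen in a single library, at no more than 3 counts.

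In the kappa chain, Igkv10-96 had 25639 expected counts in replicate 1 and 23770 in replicate 2. Its level was 1233 TPM in replicate 1 and 1086 TPM in replicate 2 (1160 ± 104, SD, n = 2), the 31st by mean TPM of the same 37581 genes. It held 99.2% of the kappa variable TPM in replicate 1 and 99.0% in replicate 2. Its counts were 8546 times the floor of 3 counts in replicate 1 and 7923 times that floor in replicate 2. Igkv10-96 points the opposite way to Igkc, the kappa constant gene, which lies on the plus strand.

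A further kappa segment, Igkv14-111, was above 1 TPM in both libraries, far below Igkv10-96. It had 165 counts (141 to 192) in replicate 1 and 233 counts (204 to 265) in replicate 2. Its level was 7.69 TPM in replicate 1 and 10.3 TPM in replicate 2 (8.995 ± 1.85, SD, n = 2). It points the same way as Igkc, and its level was 0.623% of that of Igkv10-96 in replicate 1 and 0.949% in replicate 2. It was 76.7% identical to Igkv10-96, with no identical run above 26 bases. Its own relative Igkv14-126, at 91.5% identity, had no count in either library. The members next to it along the chromosome, Igkv1-110 and Igkv2-112, had 4 counts together in replicate 1 and 2 in replicate 2. Counts of this size were thus found at Igkv14-111 and not at the segments beside it. In bulk RNA a low level in every cell cannot be told apart from a higher level in few cells.

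The 3 kappa segments that followed in level were Igkv10-95, Igkv19-93 and Igkv10-94. Igkv10-95 had 9 counts (0.64 TPM) in replicate 1 and 4 (0.27 TPM) in replicate 2. Igkv19-93 had 13 counts (0.64 TPM) in replicate 1 and 5 (0.23 TPM) in replicate 2. Igkv10-94 had 6.04 counts (0.29 TPM) in replicate 1 and 3.02 (0.14 TPM) in replicate 2. Each had fewer counts in replicate 2 and stayed below 1 TPM. A fraction of a count, as at Igkv10-94, arises when a read fits more than 1 gene. The deposited posterior SD of the count, a measure of the uncertainty of assigning such reads, was above 0 for 2 kappa segments in each library, at most 0.2 counts, and 0 for every heavy segment. Of the remaining kappa segments, Igkv1-110 had 2 counts in each library, Igkv18-36 and Igkv2-112 had 2 in replicate 1 and 0 in replicate 2, and Igkv4-54 and Igkv4-58 had 1 in replicate 1 and 0 in replicate 2. A further 8 had 1 count in a single library.

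Position along the chromosome was not part of the rule that gave the segments. The 3 segments on each side of the highest were named by a rule written with earlier results of these data known. Sides and distances are those of the GRCm38 reference, and the joined DNA of the line was not read. In the heavy locus the 3 segments next to Ighv1-53 on its 5′ side, away from the constant genes, were Ighv8-6 at 7.38 kb, Ighv1-54 at 35.3 kb and Ighv1-55 at 49.7 kb. All 3 had counts in both libraries, 20 together in replicate 1 and 25 in replicate 2. The next 3 on its 3′ side, Ighv1-52, Ighv1-50 and Ighv8-5, had 0 counts in both. The other 106 heavy segments had 0 counts in replicate 1 and 5 in replicate 2. Thus the 3 segments directly 5′ of Ighv1-53 held all 20 heavy counts outside it in replicate 1 and 25 of 30 in replicate 2. Most of these lay on Ighv1-54 alone, with 17 in replicate 1 and 18 in replicate 2. With M2 and M3, Ighv8-6 had 1 count in replicate 2 in place of 6.

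In the kappa locus most counts outside Igkv10-96 lay on Igkv14-111, with 165 of 202 in replicate 1 and 233 of 254 in replicate 2, so the 3′ side held more than the 5′ side. In the reference the 5′ side of Igkv10-96 is the side of Igkc. The 3 segments next to Igkv10-96 on that side were Igkv10-95 at 48.4 kb, Igkv10-94 at 72.5 kb and Igkv19-93 at 104 kb. Together they had 28.0 counts in replicate 1 and 12.0 in replicate 2, all 3 in both libraries. The next 3 on its 3′ side, Igkv12-98, Igkv1-99 and Igkv14-100, had 0 counts in replicate 1 and 1 in replicate 2. The 89 other kappa segments apart from Igkv14-111, which lies 376 kb away on the 3′ side, had 9 counts in replicate 1 and 8 in replicate 2, with no segment above 2. The adjoining 5′ segments in kappa do not all point the same way, since Igkv10-95 is on the plus strand and Igkv10-94 and Igkv19-93 are on the minus strand with Igkv10-96. Of the 18 kappa segments with a count, 7 were on the plus strand and 11 on the minus strand.

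**Figure D2:**
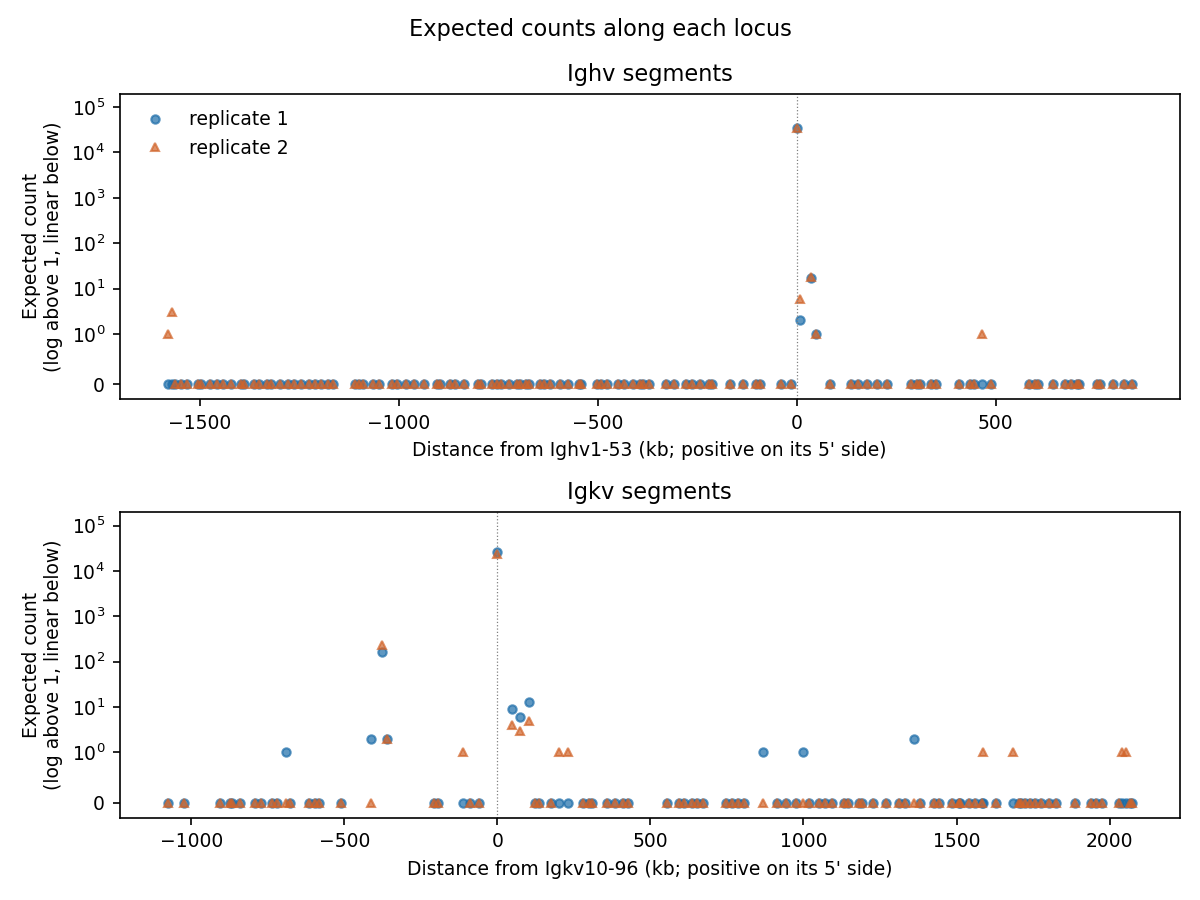
Expected counts of each segment (log scale above 1, linear below) against its distance in kb from Ighv1-53 (top) and Igkv10-96 (bottom), positive on the 5′ side of that segment, with circles for replicate 1 and triangles for replicate 2. In both loci the 3 segments next on the 5′ side have counts in both libraries, and the isolated pair of points on the 3′ side in the kappa locus is Igkv14-111.

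Likeness of sequence was set beside the counts, as a description. In the heavy chain 10 segments were at least 90% identical to Ighv1-53 over their aligned coding bases. Of these, 2 had a count, with 1 count together in replicate 1 and 2 in replicate 2, and 8 had none. Those 8 share identical runs of 63 to 94 bases with Ighv1-53, and they include Ighv1-64 and Ighv1-72, which at 95.4% are as like it as Ighv1-55 is. The 102 segments under 90% identity held 19 counts in replicate 1 and 28 in replicate 2. Most of these were on Ighv1-54 (86.6% identical, longest identical run 49 bases) and Ighv8-6 (54.7% over 340 aligned bases, 8 bases). Of the 102 segments 4 had a count, a smaller share than the 2 of 10 at or above 90%. Most heavy counts outside Ighv1-53 lay on Ighv1-54, which is near it in the locus and under 90% identity. Other segments with counts, Ighv1-69, Ighv2-2 and Ighv5-2, lie 465 to 1580 kb away, and Ighv1-52, at 12.9 kb, had none. Whether position or likeness of sequence accounts for the counts was not tested.

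In the kappa chain position and sequence cannot be told apart for 2 of the 3 neighbours. Igkv10-95 (94.2% identical to Igkv10-96) and Igkv10-94 (95.4%) are its nearest relatives and also lie next to it, and they are the only 2 segments at or above 90%. Igkv19-93 lies next to them and was 76.4% identical, with a longest identical run of 19 bases, and it had more counts than either in each library. Igkv9-123, the next most like at 81.0%, had no count in either library and lies 678 kb away. The part played by shared reads in the low counts was not tested, beyond the posterior SD of at most 0.2 counts given above.

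**Figure D3:**
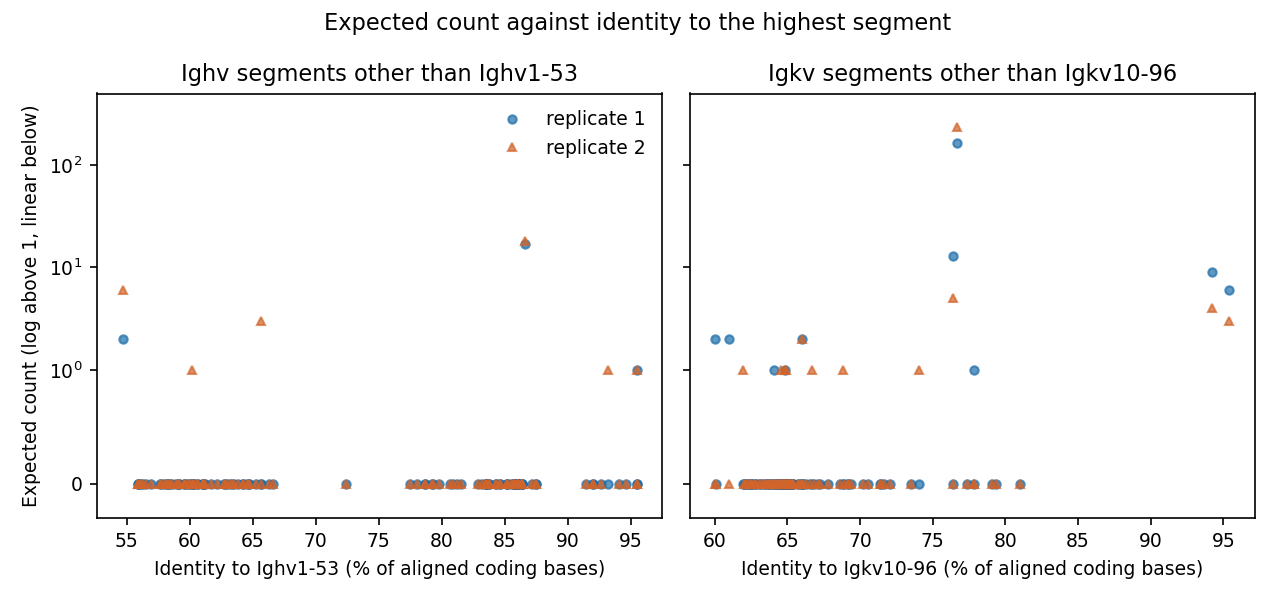
Expected counts of each segment (log scale above 1, linear below) against its identity, in percent of aligned coding bases, to Ighv1-53 (left) and Igkv10-96 (right), with circles for replicate 1 and triangles for replicate 2. On the left most points lie at 0 counts, both at 90% or above and below it. On the right the 2 points at 90% or above are Igkv10-95 and Igkv10-94.

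The libraries were compared with an exact conditional binomial test of rounded counts, whose error is that of counting alone and whose subject is the libraries, not conditions. A gene was called when its Benjamini-Hochberg adjusted p was under 0.05 and its ratio at least 2. Of the 6 segments with at least 10 counts over both libraries, 0 were called, against 4.77% of the 15438 genes tested (1.07% higher and 3.71% lower in replicate 1 than in replicate 2), and 204 segments were not tested. At an unadjusted p under 0.05, 3 of the 6 differed, and the same 3 had an adjusted p under 0.05. Over all genes an adjusted p under 0.05 alone was met by 50.4%, so that 3 of 6 is near that background.

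Those 3 were Ighv1-53, Igkv10-96 and Igkv14-111, all by less than the ratio of 2. The log2 ratio of replicate 1 over replicate 2 was 0.08 for Ighv1-53 (95% interval 0.06 to 0.11; adjusted p = 1.64e-13, exact binomial test). It was 0.21 for Igkv10-96 (0.18 to 0.23; adjusted p = 2.65e-56, exact binomial test) and -0.40 for Igkv14-111 (-0.70 to -0.11; adjusted p = 0.0164, exact binomial test). None of these differences met the call rule, and the spread that further cultures would show was not measured. The deposited TPM credibility bounds, whose level is not given in the sources used here, did not overlap between the libraries for the same 3 segments. For Igkv14-111 they ran from 6.54 to 8.86 TPM in replicate 1 and from 9.02 to 11.7 TPM in replicate 2. They overlapped for the other 22 segments with counts. How often such bounds fail to overlap over all genes was not computed, so the 3 segments cannot be set against a background here. The bounds come from the same reads as the test and are not separate evidence of a difference.

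For the other 3 segments tested the intervals were wide. The log2 ratio was 0.02 for Ighv1-54 (-1.03 to 1.06; adjusted p = 1, exact binomial test), 1.27 for Igkv10-95 (-0.57 to 3.42; adjusted p = 0.319, exact binomial test) and 1.48 for Igkv19-93 (-0.10 to 3.32; adjusted p = 0.123, exact binomial test). Counts of this size leave room for a more than 2-fold difference in either direction at Ighv1-54. The fewer counts of Igkv10-95 and Igkv19-93 in replicate 2 were not distinguished from counting error.

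A spliced antibody mRNA carries 1 variable and 1 constant part, so their levels per length were set side by side. The heavy segments summed to 1597 TPM in replicate 1 and 1531 TPM in replicate 2, against sums for the heavy constant genes of 1752 and 1638 TPM. The variable to constant ratio was 0.912 in replicate 1 and 0.934 in replicate 2 (0.923 ± 0.0161, SD, n = 2). The constant sum was mostly Ighm, the mu constant gene of IgM, at 1545 and 1452 TPM, and Igha, the alpha constant gene of IgA, at 202 and 183 TPM. The kappa segments summed to 1243 TPM in replicate 1 and 1097 TPM in replicate 2, against Igkc at 1518 and 1494 TPM. The kappa ratio was 0.819 in replicate 1 and 0.734 in replicate 2 (0.777 ± 0.0601, SD, n = 2). In both chains the variable sum was below the constant sum in each library.

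The heavy ratio depends on how length enters it. TPM divides counts by an effective length, which was 159 bases below the annotated length in replicate 1 and 166 bases below it in replicate 2. That takes away a large part of a segment such as Ighv1-53, at 351 bases, and of Igkc, at 323 bases, but a small part of Ighm, whose effective length was 1388 bases. Per base of annotated length, the heavy ratio was 0.558 in replicate 1 and 0.554 in replicate 2, and the kappa ratio was 0.874 and 0.788. The kappa ratio was thus below the heavy ratio in TPM and above it per annotated base. In TPM the heavy variable sum was 1.28 times the kappa variable sum in replicate 1 and 1.40 times in replicate 2, and the constant sums gave 1.15 and 1.10.

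**Figure D4:**
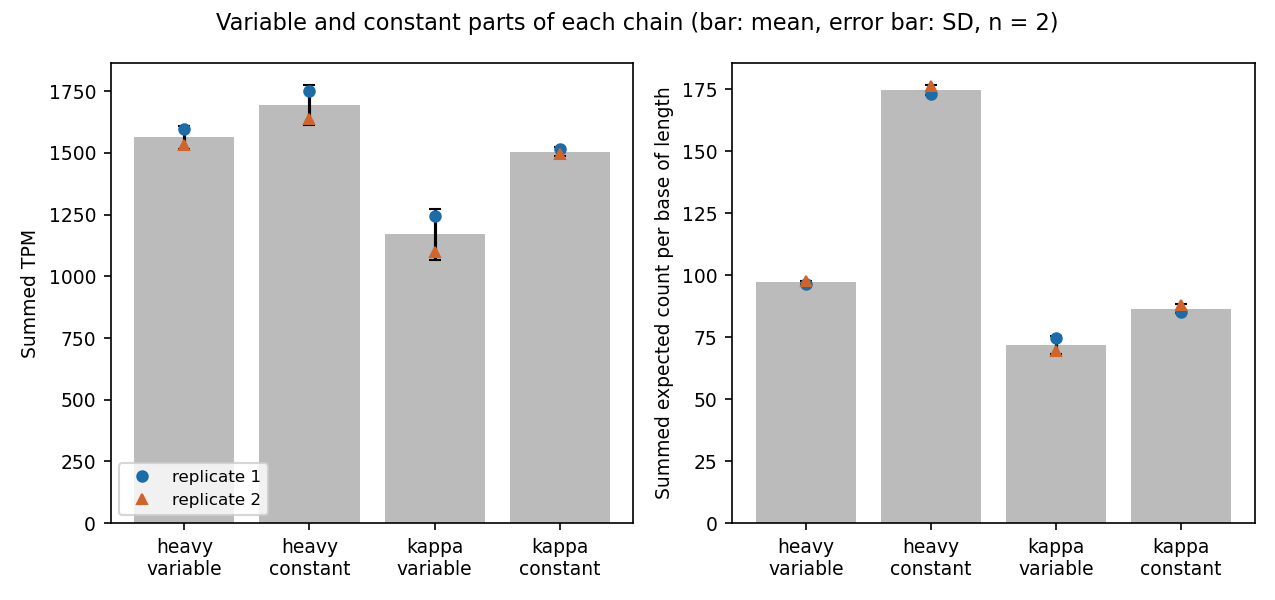
Summed TPM (left) and summed expected count per base of annotated length (right) of the variable and constant genes of the heavy and kappa chains, with bars for the mean, error bars for the SD of the 2 libraries, circles for replicate 1 and triangles for replicate 2. The heavy variable bar is close to the heavy constant bar in TPM and well below it per annotated base.

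Other gene lists place these levels. Of 132 T cell receptor variable genes, which belong to another cell type, 12 (9.09%) had a count in either library, with at most 5 counts in a gene, and 1 (0.758%) had counts in both. Among the 210 segments 25 (11.9%) had a count in either library and 10 (4.76%) in both. None of the T cell receptor genes had 10 counts over both libraries, and 6 segments did. The 66 heavy and kappa variable pseudogenes in the table, of 130 annotated, had 0 counts, and 3 of the 66 had an effective length of 0. The 19 diversity and 9 joining segments were listed at 0 with an effective length of 0, so their values carry no information on expression. The lambda constant gene Iglc2 had 10775 counts (218 TPM) in replicate 1 and 10035 (189 TPM) in replicate 2, close to the level of Igha. Of 13 annotated immunoglobulin constant genes 10 had a row, and Iglc2 was the only lambda constant gene among them. The lambda variable segments were far below Iglc2: Iglv3 had 3.93 and 3.80 TPM, Iglv1 2.21 and 1.70 TPM, and Iglv2 0.33 and 0.36 TPM.

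All 16 transcription factors on the list of those that act at immunoglobulin promoters and enhancers were at or above 1 TPM in both libraries. The highest were Tcf3, which encodes the E proteins E12 and E47, at 42.1 and 47.9 TPM, Spib, an ETS family factor, at 29.3 and 43.3 TPM, and Irf4, which pairs with ETS factors at light chain enhancers, at 33.0 and 27.2 TPM. Of 13 genes of the recombination machinery 8 reached 1 TPM. The highest were Hmgb1 at 111 and 68.1 TPM and Hmgb2 at 36.6 and 31.4 TPM, both DNA-bending proteins, and Xrcc6, the Ku70 end-binding protein, at 15.5 and 13.0 TPM. Rag1 and Rag2, which encode the recombinase that cuts the segments, had 0 counts in both libraries. Dntt, which adds bases at the joins, had 0 counts in replicate 1 and 7 in replicate 2. Lig4 and Nhej1, which act in the joining of broken ends, were below 1 TPM, Lig4 at 0.65 and 0.52 TPM and Nhej1 at 0.82 and 0.66 TPM. Transcripts of the recombinase were thus not detectable at this depth, while most of the end-joining genes on the list were above 1 TPM.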

How the data were processed

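Total RNA of CH12.LX was measured in 2 libraries, grouped as 1 line by the labels. The authors' deposited tables give, per gene and per the file headers, an expected count, TPM, FPKM, a posterior mean and SD of the count, and lower and upper TPM credibility bounds. They also give, per the file headers, the percent of a gene's level in each transcript, used here only for segments with several transcripts. Reads were assigned on mm10 with annotation releases M2, M3 and M4, per the labels of the tables; M4 was used, with M2 and M3 as alternatives. The sources used here do not name the aligner or quantifier, or say whether counting used strand.

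Genes were matched by Ensembl identifier to GENCODE M21 (42462 of 43346 matched) for symbol, gene type and position. The 26345 rows without an Ensembl gene identifier (0.0000568% and 0.0000536% of expected counts in replicates 1 and 2) were left out. The libraries were compared by a two-sided exact conditional binomial test of expected counts rounded to whole numbers, with TMM library sizes from edgeR 4.0.16 (R 4.3.3), over all genes with at least 10 counts in sum. It covers counting error only, and no model with replicates could be fitted because each side is 1 library. DESeq2 1.42.0 gave size factors for an alternative. Identity came from global alignment of M21 coding sequences, end gaps penalised, in Biopython 1.88. Python 3.11.15, numpy 2.4.6, pandas 2.3.3, scipy 1.17.1 and matplotlib 3.10.9 did the rest. No annotated gene overlapped a segment with counts. Promoter octamers and recombination signals were not analysed here.

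Named were, for each chain, the 10 segments with the highest mean TPM (where they had counts), those at or above 0.1 TPM in both libraries, those called between libraries, the 3 next to the highest on each side and the 3 most like it. Igkv14-126 and the segments of the strand and family counts were added after values were seen. The segments, lists and rules were chosen with earlier results of these data known.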

Additional observations from a re-analysis of the deposited data

How the results depend on the processing

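No paired analysis was possible because both libraries belong to 1 group. The shares of the highest segments kept to within a percentage point: with posterior mean TPM, which gives a small value to segments without counts, they were 99.5% for Ighv1-53 and 98.7% for Igkv10-96. In single libraries they ran from 99.9203% to 99.9449% and from 98.9681% to 99.2157%. The heavy variable to constant ratio was 0.964 with M2 and with M3, 0.129 from expected counts not divided by length, and 0.556 per annotated base, a choice added after seeing the data. The kappa ratio was 0.893 from expected counts. At a threshold of 0.1 TPM, 3 heavy and 5 kappa segments passed; at 10 TPM 1 kappa segment did. With TPM rescaled to genes outside the small noncoding types 2 heavy segments passed 1 TPM. The lower credibility bound was above 0 for all 210 segments, those without counts included, and at or above 0.1 TPM for 4. By adjusted p alone, without the ratio of 2, 3 segments and 7779 genes differed between the libraries (exact binomial test), against 0 and 737 with it. Library totals, DESeq2 size factors, a minimum of 1 count, posterior mean counts, M2 and M3 gave 670 to 726 genes and 0 segments. Of the 25 segments named by rule with an M2 and M3 row, 3 moved beyond the spread between libraries there, Ighv1-54 to 0.775, Ighv8-6 to 0.095 and Ighv1-55 to 0.05 TPM, and of all 26 named 17 did with posterior mean TPM. Depth limits every statement on a segment without counts.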
